A study of Mus musculus with 10 samples.

Results

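Intragenic peak regions far from gene ends are described here in mouse liver profiled for XBP-1. Peaks of 4 libraries, 2 from fasted and 2 from fed mice, were merged wherever they overlapped by at least 1 bp. Of 112251 merged regions, 10361 (9.23%) had a peak in all 4 libraries. Of these, 2247 (21.7%) had their midpoint inside a RefSeq protein-coding gene and more than 5 kb from both ends of every protein-coding gene, and they are the members described here. The other regions in all 4 lists comprised 4995 within 1 kb of a gene end (gene-end regions), 1561 outside genes and more than 5 kb from any gene end (intergenic regions), 1546 lying 1 to 5 kb from a gene end, and 12 on sequences that could not be placed. The members were thus chosen by presence in the Fasted and Fed lists and by position, and their values in those lists are given as a description, without a test. The Ern1-LKO and WT lists had no part in the choice.

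The peaks came from chromatin immunoprecipitation and sequencing (ChIP-seq) with an antibody to spliced XBP-1 (Xbp-1s, Santa Cruz). All 10 samples were liver of strain C57BL/6J: 2 libraries each of fasted wild-type mice (Fasted), fed wild-type mice (Fed), mice with a liver-specific knockout of Ern1 (Ern1-LKO) and the control mice of that knockout (WT), and 2 input libraries without antibody. The labels give no fasting time, sex, age, Cre driver or promoter, and no feeding state for the Ern1-LKO and WT mice. They do not say whether libraries of a group came from separate animals, so the p-values rest on variation among these libraries, and that variation may be technical. A liver-specific knockout leaves Ern1 in mice outside the targeted liver cells, and peak lists hold no measure of Ern1 itself, so the knockout was not checked here.

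XBP-1 is a basic leucine zipper transcription factor of the unfolded protein response. Its active form is made after the endoplasmic reticulum (ER) sensor IRE1, the product of Ern1, splices Xbp1 mRNA, and it binds DNA elements with an ACGT core, among them the ER stress elements that contain CCACG. Peaks inside genes can fall on alternative promoters, on enhancers or on other chromatin, and a peak list alone does not say which.

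The libraries differed widely in depth and in the number of peaks called. Kept tags numbered 8377833 and 9620502 in the Fasted, 17399899 and 7765561 in the Fed, 11995890 and 4340956 in the Ern1-LKO and 14072378 and 9176542 in the WT libraries. The lists held 53973 and 19237 peaks in Fasted, 82975 and 47357 in Fed, 698 and 30796 in Ern1-LKO, and 6258 and 30327 in WT, so replicate 1 of both Ern1-LKO and WT stood apart with short lists. Fasted and Fed lists were called against the first input library (39671280 kept tags), and Ern1-LKO and WT lists against the second (16513198 kept tags), so groups were compared only within each of these pairs. Fold enrichment, the authors' ratio of the peak's pileup to the local background, is used only to describe and rank peaks within a list. Its percentile in a list runs to 100 for the highest fold.

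The member of the highest mean percentile, and several others near the top, sat at a transcription start that RefSeq lists inside the host gene. The 250 bases before 5 such starts are shown because they hold, or in 1 case lack, the letters searched for below. Each is written 5′ to 3′ on the strand of the gene, from RefSeq on GRCm38.p6 (mm10), with every ACGTG and CCACG, read on either strand (CACGT and CGTGG on the other), in capitals. An ACGTGG or CCACGT run holds both motifs at once. Hdlbp encodes vigilin, an RNA-binding protein, and its window is chr1:93445702-93445951 on the minus strand. Nktr, a cyclophilin-related protein of natural killer cells, has its window at chr9:121718931-121719180 on the plus strand. Dnajc25, a J-domain co-chaperone, has its window at chr4:59002943-59003192 on the plus strand. Smim14, a small ER membrane protein, has its window at chr5:65492712-65492961 on the minus strand. Csnk1e, casein kinase 1 epsilon of the circadian clock, has its window at chr15:79441838-79442087 on the minus strand.
Hdlbp: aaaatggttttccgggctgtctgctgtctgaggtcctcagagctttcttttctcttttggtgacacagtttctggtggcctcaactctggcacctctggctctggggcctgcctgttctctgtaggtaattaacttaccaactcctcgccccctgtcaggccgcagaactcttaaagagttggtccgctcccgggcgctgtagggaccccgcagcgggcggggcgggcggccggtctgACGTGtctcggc
Nktr: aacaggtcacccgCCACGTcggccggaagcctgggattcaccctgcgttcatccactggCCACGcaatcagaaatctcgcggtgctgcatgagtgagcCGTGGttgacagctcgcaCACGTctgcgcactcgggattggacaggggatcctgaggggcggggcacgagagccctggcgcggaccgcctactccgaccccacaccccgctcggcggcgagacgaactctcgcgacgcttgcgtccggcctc
Dnajc25: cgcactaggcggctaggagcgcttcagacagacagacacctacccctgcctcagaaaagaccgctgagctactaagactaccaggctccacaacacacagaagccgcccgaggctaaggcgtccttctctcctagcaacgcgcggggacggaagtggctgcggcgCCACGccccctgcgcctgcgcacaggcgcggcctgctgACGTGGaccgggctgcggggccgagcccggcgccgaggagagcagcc
Smim14: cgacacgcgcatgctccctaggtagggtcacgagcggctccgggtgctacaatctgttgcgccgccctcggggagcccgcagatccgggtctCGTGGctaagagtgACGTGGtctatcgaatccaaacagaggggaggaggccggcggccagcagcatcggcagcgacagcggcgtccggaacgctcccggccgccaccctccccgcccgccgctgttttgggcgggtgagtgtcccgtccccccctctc
Csnk1e: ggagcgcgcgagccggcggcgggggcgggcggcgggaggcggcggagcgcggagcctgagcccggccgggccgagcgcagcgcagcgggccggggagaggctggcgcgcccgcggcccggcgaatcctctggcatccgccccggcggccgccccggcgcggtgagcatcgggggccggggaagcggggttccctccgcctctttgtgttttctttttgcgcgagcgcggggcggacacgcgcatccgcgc
The Hdlbp window holds 1 ACGTG, beginning 12 bp before the start, and the mean Fasted and Fed summit lay 19 bp before the start. The Nktr window holds 2 ACGTG and 3 CCACG, and the mean summit lay 33 bp before the start. The Dnajc25 window holds 1 ACGTG, beginning 47 bp before the start, and 2 CCACG, with the summit 17 bp before the start. The Smim14 window holds 1 ACGTG, beginning 144 bp before the start, and 2 CCACG, with the summit 59 bp before the start. The Csnk1e window holds neither motif but 46 CG pairs, and the summit lay 9 bp after the start. A match of letters is a description and does not show a binding site.

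The members were spread over 1755 host genes, which are 12.7% of the 13809 protein-coding genes that have any base more than 5 kb from every gene end. Of these hosts, 1397 held 1 member, 273 held 2 and 85 held 3 or more, and 8 members lay in a pair of overlapping genes. Host genes were long, with a median length of 93.4 kb against 33.7 kb for all genes that could host a member. The members' median distance to the nearest gene end was 23.2 kb, with the farthest at 865 kb, and 498 members lay between 5 and 10 kb from an end. In 2235 of the 2247 members the summits of all 4 libraries also met the position rule, so the label held for the summits in all but 12. The annotation table gives gene spans without exons, so exon or intron was not assigned here.

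Members lay along the whole length of their hosts. Among the 1803 members whose host had a known direction, 18.5% lay in the first of 5 equal segments of the gene from the 5′ end, 24.1% in the next, 22.5% in the middle one, 20.9% in the one after it and 14.0% in the last. Chromosome X held few of them: 11 members in 38.3 Mb of gene interior, or 0.287 per Mb, against 2.12 to 3.80 per Mb on the 19 autosomes. Gene-end regions were also sparse on X, with 6.31 per 100 protein-coding genes against 14.9 to 28.8 per 100 on the autosomes, and X held 0.716% to 1.67% of all peaks in each of the 8 lists. The labels give no sex.

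The position limit cut through a continuous run of regions. Just inside it lay regions in Klhl26 (5005 bp from a gene end), Zfhx3 (5008 bp), Mbd1 (5010 bp), Kit (5020 bp) and Sel1l (5030 bp), with Fasted replicate 1 folds of 7.67, 11.2, 9.0, 9.47 and 8.92. Just outside it lay regions in Zfp800 (4997 bp), Arhgef10 (4995 bp), Ccdc65 (4994 bp), Tada2a (4987 bp) and Ep300 (4983 bp), with Fasted replicate 1 folds of 10.8, 3.70, 11.05, 8.94 and 8.18.

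A part of the members coincided with internal transcription starts. Of the 2247, 303 (13.5%) had a listed start of their host gene inside the region or within 500 bp of it, 22 (0.979%) had only a start of another, non-coding gene, and 1489 (66.3%) had none. The other 433 (19.3%) lay in hosts for which no start was used here, and they enter neither side of this split, which was chosen after the data had been seen. Gene spans in the annotation run to the outermost transcript, so an inner start need not be a minor one: 139 of the 303 regions lay at the most 5′ start listed for the host. The mean Fasted and Fed summit lay downstream of the nearest listed start in 224 of the 303 (73.9%), and its median position over the 303 was 133 bp downstream, as the histogram of summit positions shows.

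**Figure D1:**
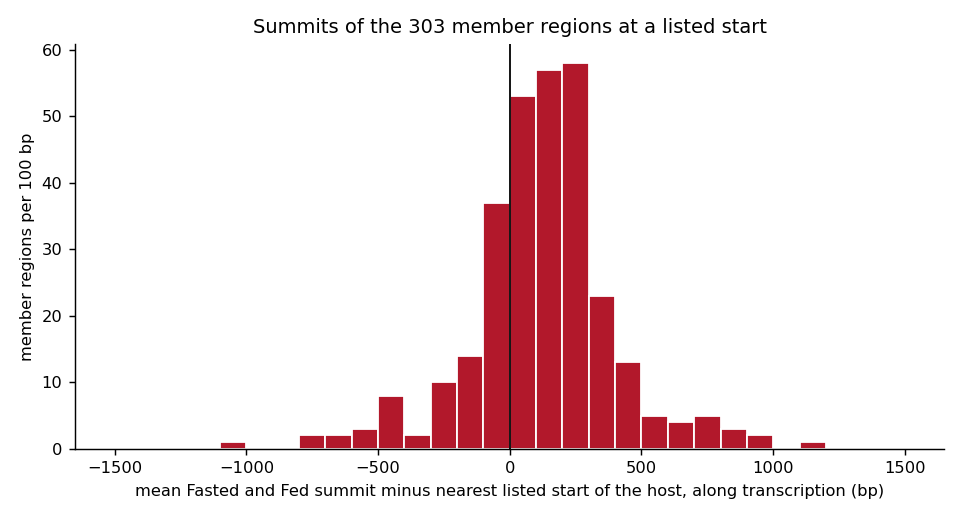
Distance of the mean Fasted and Fed summit from the nearest listed start of the host gene, along the direction of transcription, in bp (x axis), against the number of member regions per 100-bp bin (y axis), for the 303 members at a listed start. Most summits lie downstream of the start, with a median of 133 bp.

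Members at a start were wide and members elsewhere narrow. The median region width was 1009 bp for the 303 members at a listed start and 369 bp for the 1489 at none, against 1017 bp for gene-end regions and 364 bp for intergenic regions. The 4 summits of a region spread over a median of 202 bp at a start and 55 bp at no start, against 191 bp in gene-end and 55 bp in intergenic regions. In width and summit spread, members at a start therefore stood near gene-end regions and the rest near intergenic regions. These widths come from the Fasted and Fed peaks that chose the members and are a description.

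Within each Fasted and Fed list, members ranked in the upper part by fold. Their median fold was 10.8 in Fasted replicate 1 and 9.05 in Fasted replicate 2, and 5.32 in Fed replicate 1 and 8.60 in Fed replicate 2. The range over members ran from 3.60 to 66.5, 2.51 to 25.6, 2.38 to 54.6 and 3.72 to 92.2 in the same order of libraries. Members at a listed start had median percentiles of 94.1 in Fasted replicate 1, 93.4 in Fed replicate 1 and 86.8 in Fed replicate 2, above the 79.0, 78.9 and 76.3 of members at no start. Fasted replicate 2 had the opposite order, with 45.7 for members at a start and 72.9 for members at no start, beside 38.2 for gene-end and 68.0 for intergenic regions. In that library the low standing went with width: members at no start ranked at a median of 35.4 where wider than 1 kb and 78.8 where at most 500 bp wide, against 90.2 and 76.7 in Fasted replicate 1. Its list is the shortest of the 4 with 9620502 kept tags, and the reason for its order was not tested.

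**Figure D2:**
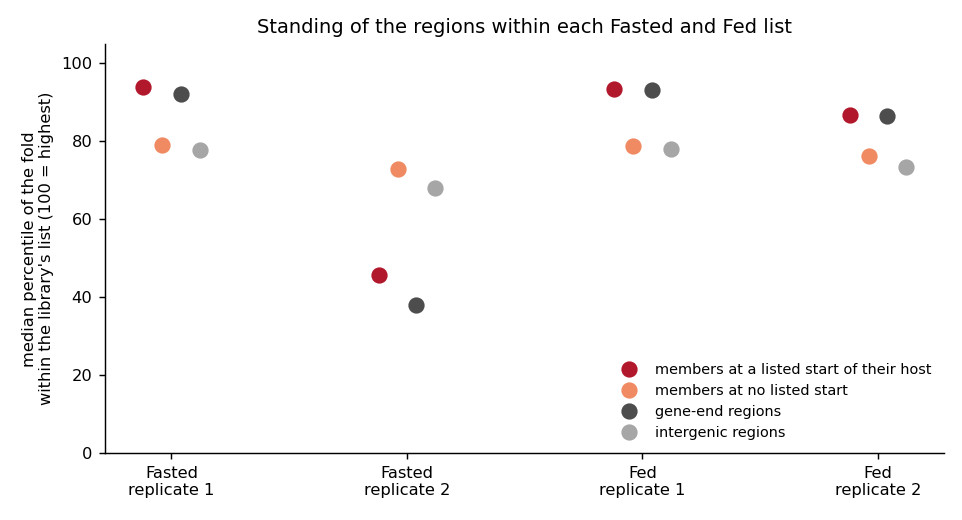
Median percentile of the fold within each Fasted and Fed list (y axis, 100 for the highest fold) for members at a listed start, members at no listed start, gene-end regions and intergenic regions, by library (x axis). Members at a start stand above the other members in 3 lists, and below them in Fasted replicate 2 (45.7 against 72.9).

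The members named first are the 20 with the highest mean percentile of fold over the 4 Fasted and Fed lists. Hdlbp (chr1:93444780-93446084, 33485 bp from the nearest gene end) came first, with folds of 66.5 and 19.0 in Fasted and 54.6 and 92.2 in Fed. Its folds were 23.8 and 66.6 in Ern1-LKO and 44.6 and 71.9 in WT, so it had a peak in all 8 libraries, at or above the 99.6 percentile in each. Among the Fasted and Fed libraries its percentile within the list was lowest in Fasted replicate 2, and among Ern1-LKO and WT in Ern1-LKO replicate 1.

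Krt78, a type II keratin gene, hosted the second (chr15:101976969-101977800), 23160 bp from the nearest listed start. Its folds were 41.8 and 24.4 in Fasted and 26.6 and 42.0 in Fed, then 10.6 and 57.0 in Ern1-LKO and 23.6 and 49.4 in WT. Chd9, a chromatin remodeller of the CHD family, hosted the third (chr8:90907726-90909519), with 28.0 and 17.3 in Fasted, 21.4 and 30.7 in Fed, 11.7 and 44.7 in Ern1-LKO and 30.6 and 57.3 in WT. Both were thus far from any listed start and yet present in every library. In Ern1-LKO as in WT their percentile within the list was lower in replicate 1.

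Nktr (chr9:121718444-121720341) had folds of 28.3 and 16.2 in Fasted and 26.1 and 43.9 in Fed. It had no peak in Ern1-LKO replicate 1, 27.8 in Ern1-LKO replicate 2, and 20.1 and 47.4 in WT. Dnajc25 (chr4:59002852-59003789) had 39.6 and 14.1 in Fasted and 20.4 and 40.5 in Fed, no peak in Ern1-LKO replicate 1, 9.51 in Ern1-LKO replicate 2, and 12.1 and 24.3 in WT. Both were absent from the short Ern1-LKO list only. Csnk1e had 28.0 and 15.1 in Fasted and 9.77 and 15.6 in Fed, 14.1 in Ern1-LKO replicate 2, and 5.74 and 10.8 in WT.

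Metabolic genes stood among the top 20 as well. Cth, the cystathionine gamma-lyase of cysteine synthesis, held a region 13343 bp from its nearer gene end with folds of 27.2 and 19.3 in Fasted and 10.8 and 18.4 in Fed. It had a peak in replicate 2 alone of Ern1-LKO (16.1) and of WT (9.52). Ppm1k, the phosphatase that activates the branched-chain ketoacid dehydrogenase, had 16.0 and 19.2 in Fasted and 9.40 and 13.6 in Fed, with 10.9 and 6.87 in replicate 2 of Ern1-LKO and WT. Slc4a4, a sodium bicarbonate cotransporter, had its region at a listed start, with 16.8 and 18.3 in Fasted and 11.4 and 15.0 in Fed. The metabolic regions were missing from both replicate 1 lists of the Ern1-LKO and WT pair, which does not set them apart. Those lists held a peak at only 2.31% and 5.21% of all members. Zfhx3 and Dusp16, also in the top 20, were missing from both as well.

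The other members of the top 20 lay in genes of various roles. At listed starts lay the regions of Csk, a kinase that restrains Src kinases, and Dusp16, a MAP kinase phosphatase, with Fasted replicate 1 folds of 27.8 and 21.6. At no listed start lay those of Zfhx3, a zinc finger homeobox factor (25.3), and of Trerf1, a transcriptional regulator (19.4), and at the start of a non-coding gene that of Rnf220, a ubiquitin ligase (21.3). Baz1a, a chromatin remodelling subunit (19.0), and Usp28, a deubiquitinase (21.0), came last of the 20. Epb41l5 was the one of the 20 with no peak in any Ern1-LKO or WT library, with 13.7 and 25.6 in Fasted and 10.4 and 15.8 in Fed. Crybg3, Oxr1 and Prr16 completed the 20, each with peaks in replicate 2 of Ern1-LKO and of WT.

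**Figure D3:**
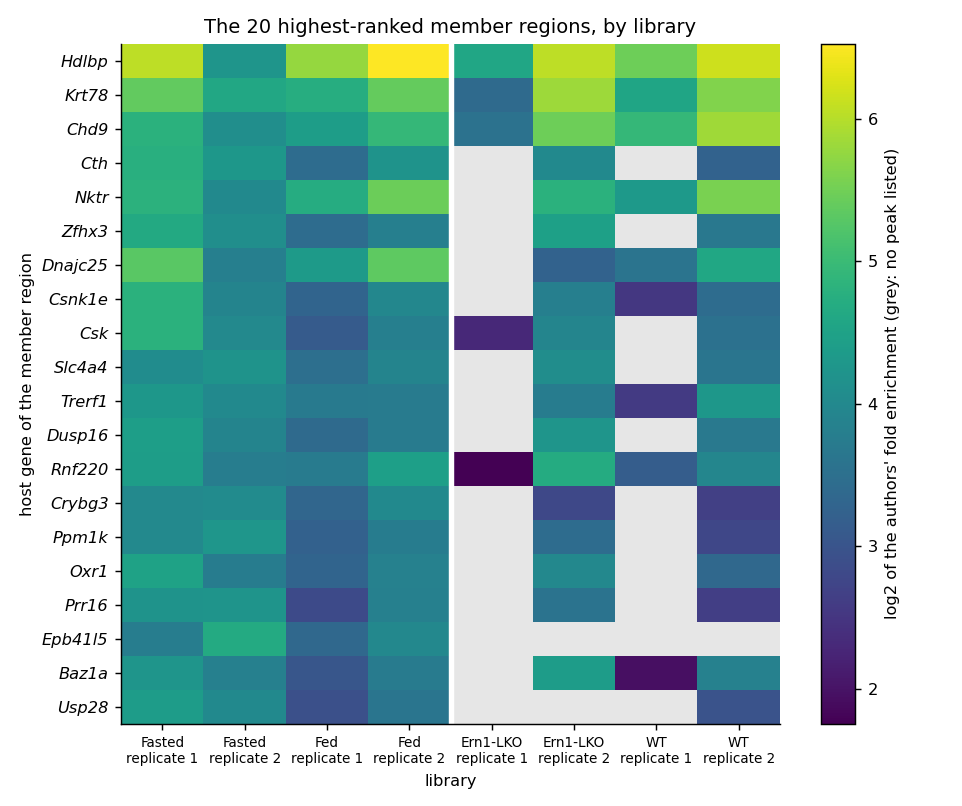
Fold enrichment given by the authors, as log2 (colour), for the 20 members of the highest mean percentile in the Fasted and Fed lists (rows, by host gene) in each of the 8 libraries (columns); grey marks a library with no peak listed. Hdlbp, Krt78, Chd9 and Rnf220 have a peak in every library, and the 2 replicate 1 columns of Ern1-LKO and WT hold most of the grey cells.

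In the lists that did not choose them, the shares of members found in Ern1-LKO and in WT livers overlapped between replicates. Ern1-LKO replicate 1 held a peak at 52 of the 2247 members (2.31%) and replicate 2 at 1455 (64.8%), against 117 (5.21%) in WT replicate 1 and 1344 (59.8%) in WT replicate 2. The shares over all 10361 regions in the 4 Fasted and Fed lists were 5.94% and 82.9% in Ern1-LKO and 16.1% and 79.8% in WT. The spread between replicates exceeded any difference between the groups. The mean share was 33.5% ± 44.2 in Ern1-LKO and 32.5% ± 38.6 in WT (SD, n = 2 each), a difference of 1.02 percentage points (exact two-sided permutation test, p = 1, smallest possible p = 0.33). In the authors' pooled lists, 39.0% of members had a peak in Ern1-LKO and 27.7% in WT, values without replicates. The spliced form of XBP-1 is made through IRE1, the product of Ern1. Whether the peaks listed in Ern1-LKO livers mark XBP-1 itself was not tested.

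No member separated the genotypes in both replicates. None was listed in both replicates of Ern1-LKO while missing from both of WT, or in both of WT while missing from both of Ern1-LKO, where 0% and 0.029% of all 10361 regions did so. Both Ern1-LKO libraries held 52 members (2.31%, against 5.88% of all regions), and both WT libraries 116 (5.16%, against 16.1%). In the replicate 2 lists alone, 1106 members (49.2%, against 74.6% of all regions) had a peak in both genotypes. A peak in Ern1-LKO replicate 2 only was seen at 349 (15.5%, against 8.25%), and one in WT replicate 2 only at 238 (10.6%, against 5.2%). With 698 and 6258 peaks, the short replicate 1 lists limit these counts. Those libraries had more kept tags than replicate 2, with 11995890 against 4340956 in Ern1-LKO and 14072378 against 9176542 in WT. The reason for the short lists was not tested.

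Members were found less often than gene-end regions and more often than intergenic regions in each of the 4 libraries. The member shares of 2.31%, 64.8%, 5.21% and 59.8% in Ern1-LKO replicates 1 and 2 and WT replicates 1 and 2 compare with 9.27%, 98.2%, 26.3% and 98.3% of gene-end regions. Intergenic regions had 1.15%, 58.5%, 2.05% and 47.7%. The 1489 members at no listed start had 0.537%, 57.9%, 1.14% and 51.5%, above intergenic regions in WT replicate 2 only. The higher share of members than of intergenic regions thus did not extend to them in the other libraries. The mean over libraries was 33.0% ± 33.9 for members and 58.0% ± 47.0 for gene-end regions (SD, n = 4 libraries), a difference of -24.99 points, with members lower in 4 of 4 libraries (exact sign-flip permutation test, p = 0.125, adjusted p = 0.172). Against the 27.3% ± 30.05 of intergenic regions members were 5.68 points higher, in 4 of 4 libraries (exact permutation test, p = 0.125, adjusted p = 0.172). With 4 libraries the test cannot give a p below 0.125, so neither difference can pass 0.05, and the adjustment (Benjamini-Hochberg) is over the 11 exact tests computed. With equal numbers of top peaks taken from each of the 4 lists, the differences were -6.23 points against gene-end regions and 0.901 points against intergenic regions. Median widths were 388 bp for members, 1017 bp for gene-end and 364 bp for intergenic regions, and a wider region can meet more peaks. These classes were not compared at like width. When only a peak that covers the mean Fasted and Fed summit was counted, the differences were -22.6 and 5.12 points in the same order.

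Where a peak was present, its standing by fold differed in direction between libraries. The median percentile of members was 44.1 and 64.4 in Ern1-LKO and 50.3 and 66.2 in WT, against 49.0 and 86.7 in Ern1-LKO and 44.2 and 84.6 in WT for gene-end regions. Members were higher in 1 of the 4 libraries, WT replicate 1, and the mean difference was -9.91 points (exact permutation test, p = 0.375, adjusted p = 0.458).

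The members at a listed start were found far more often in these lists than the members at none. A peak was present at 12.2% and 99.3% of members at a start in Ern1-LKO and 24.8% and 97.7% in WT, against 0.537% and 57.9% in Ern1-LKO and 1.14% and 51.5% in WT for members at no start. The mean was 58.5% ± 46.5 at a start and 27.8% ± 31.2 at none (SD, n = 4 libraries), 30.7 points higher in 4 of 4 libraries (exact permutation test, p = 0.125, the smallest possible, adjusted p = 0.172). The shares at a start lay near those of gene-end regions and the shares at no start near those of intergenic regions in both replicate 2 lists, a likeness that was not tested. In the replicate 1 lists members at no start had 0.537% and 1.14% where intergenic regions had 1.15% and 2.05%. With equal numbers of top peaks taken from each list the difference was 9.33 points. In the pooled lists the shares were 93.1% at a start and 27.5% at none in Ern1-LKO, and 90.8% at a start and 14.9% at none in WT.

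**Figure D4:**
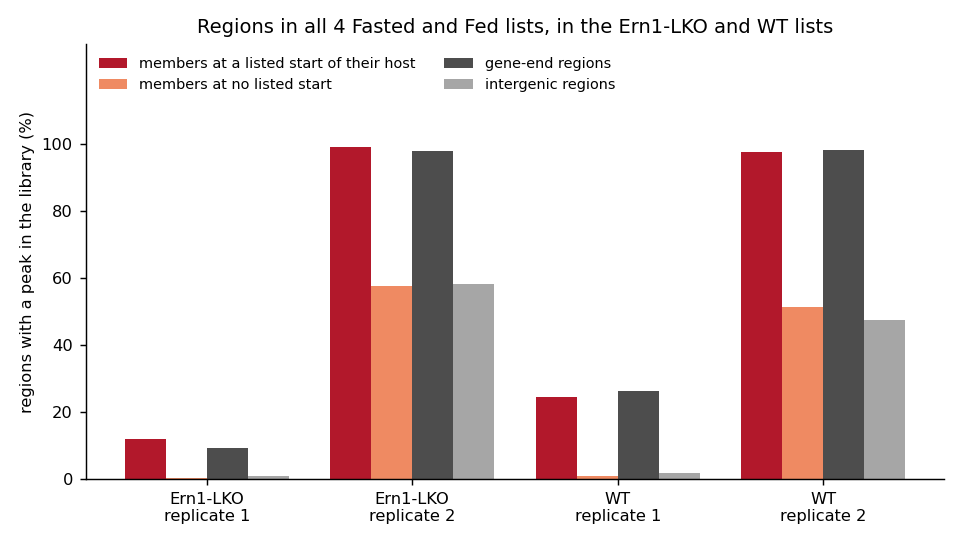
Share of regions with a peak (y axis, percent) in each Ern1-LKO and WT library (x axis) for members at a listed start, members at no listed start, gene-end regions and intergenic regions, all with a peak in the 4 Fasted and Fed lists. In Ern1-LKO replicate 2 members at a start reach 99.3%, members at no start 57.9%, gene-end regions 98.2% and intergenic regions 58.5%, and in Ern1-LKO replicate 1 the 4 bars stand at 12.2%, 0.537%, 9.27% and 1.15%.

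Width moved with this split, so the shares were also set side by side at like width. Among regions wider than 1 kb, 153 members at a start had a peak in 19.0% and 100% of cases in Ern1-LKO and 34.6% and 100% in WT, against 3.19% and 96.8% in Ern1-LKO and 7.45% and 97.9% in WT for 94 members at no start. The difference at this width was 12.1 points, with a higher share at a start in 4 of 4 libraries (exact permutation test, p = 0.125, adjusted p = 0.172). At 500 bp to 1 kb it was 13.9 points for 131 members at a start and 241 at none, again in 4 of 4 libraries (exact permutation test, p = 0.125, adjusted p = 0.172). At 500 bp or less, 19 members at a start had a peak in 0% and 89.5% of cases in Ern1-LKO and 0% and 68.4% in WT, higher than members at none in 2 of 4 libraries by a mean of 16.5 points (exact permutation test, p = 0.5, adjusted p = 0.55). Members at no start that were at most 500 bp wide, 1154 in number, had a peak in 0 and 577 cases in Ern1-LKO and in 4 and 479 cases in WT. The shares thus followed width among members at no start, which is a description, since width comes from the peaks that chose the members and a wider region can meet more peaks. When only a peak that covers the mean Fasted and Fed summit was counted, the difference between start and no start was 26.9 points.

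A peak in all 8 libraries was rare among members. It was seen at 32 of 2247 (1.42%, against 3.99% of all 10361 regions), of which 23 lay at a listed start, 1 at a non-coding start, 5 at none and 3 in hosts for which no start was used here. Hdlbp, Krt78, Chd9 and Rnf220, described above, belonged to these. At listed starts they also included Pom121, a nuclear pore protein, with folds of 22.7 and 10.9 in Fasted, 10.2 and 13.6 in Fed, 4.86 and 19.5 in Ern1-LKO and 3.86 and 18.4 in WT. Smim14 had 25.4 and 10.2 in Fasted, 16.8 and 24.4 in Fed, 3.15 and 18.4 in Ern1-LKO and 10.3 and 19.8 in WT. For each, in Ern1-LKO as in WT, the percentile within the list was lower in replicate 1.

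Further members with a peak in all 8 libraries lay in genes of various roles. Dnmt3a, a de novo DNA methyltransferase, had 17.1 and 18.8 in Fasted, 7.0 and 9.87 in Fed, 6.35 and 24.7 in Ern1-LKO and 4.80 and 18 in WT. Stat5b, the growth hormone responsive factor of liver, had 23.5 and 11.7 in Fasted, 9.74 and 9.09 in Fed, 5.0 and 22.2 in Ern1-LKO and 4.22 and 7.03 in WT. Usp7, a deubiquitinase, Kansl1, a subunit of a histone acetyltransferase complex, Mllt10, a chromatin reader, and the transcription factors Rreb1, Sp2 and Elf2 belonged to the same set. Slc39a10, a zinc importer, Ipo5, an importin, Bri3, Fam107b, Bicral and Ywhaz, a 14-3-3 protein, were the others named by the rule.

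At the other extreme, 553 members (24.6%, against 11.9% of all 10361 regions) had no peak in any of the 4 Ern1-LKO and WT libraries. Of these, 440 lay at no listed start, 107 in hosts for which no start was used here, and 2 at a listed start. Epb41l5 was the highest-ranked of them. Klhl26, Mbd1 and Kit, just inside the 5-kb limit, were also in this set.

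One member in all 8 libraries lay beside a microRNA gene. The region chr6:51270139-51271498 in the predicted gene Gm38821 lay 229 bp from the Mir148a hairpin, with folds of 31.0 and 11.1 in Fasted, 23.4 and 24.0 in Fed, 4.44 and 31.0 in Ern1-LKO and 20.5 and 40.1 in WT. miR-148a is an abundant liver microRNA, and its mature sequence from RefSeq (GRCm38.p6, minus strand of chromosome 6) is shown with the seed, bases 2 to 8, in capitals.
mmu-miR-148a-3p: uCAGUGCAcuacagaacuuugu
In all, 10 members lay within 1 kb of a microRNA gene. This region was picked after its values were seen, and the peak lists do not say whether the microRNA was made.

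Letters around the inner starts differed between those at a member and those at no member, together with base composition. The table of 300-base start windows (250 before to 50 after the start) held 2151 starts more than 5 kb from every gene end and inside their own gene, of which 360 (16.7%) were at a member. Many starts at no member still had a peak in some lists. Of the 2151, a peak was present at 828 in Fasted replicate 1 and 362 in Fasted replicate 2. In Fed it was present at 974 in replicate 1 and 781 in replicate 2. ACGTG, on either strand, was found in 22.5% of windows at a member and 15.9% at no member, against 19.6% of all 32851 windows and 27.5% of windows at gene-end starts with a region in all 4 lists. CCACG, on either strand, was found in 51.9% of windows at a member and 26.2% at no member. It was found in 32.8% of all windows and 54.5% at gene-end starts with a region in all 4 lists. The median number of CG pairs was 28.5 at a member and 5 at no member, beside 7 in all windows, and both motifs contain CG, so the part of base composition in these shares was not tested. The AP-1 like TGANTCA was found in 4.44% of windows at a member and 9.66% at no member, against 7.81% of all windows. The full ER stress element was rare, in 0 of 360 windows at a member, 2 of 1791 at no member and 0.119% of all windows. The short motif shares therefore do not show full elements at the inner starts at a member. A longer form of the motif named first was found in 4 windows (1.11%) at a member and 13 (0.726%) at no member, too few to compare. All these shares are descriptions of the windows, since peaks in the Fasted and Fed lists chose the members.

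Within the members at a start, presence in the lists that did not choose them differed with the ACGTG letters mainly in WT replicate 1. A window at the start nearest the summit held ACGTG in 64 of the 303 members, in a split made after the data had been seen. A peak was present at 15.6% and 100% of these in Ern1-LKO and 40.6% and 98.4% in WT, against 11.3% and 99.2% in Ern1-LKO and 20.5% and 97.5% in WT for the 239 without it. The mean difference was 6.56 points, higher with ACGTG in 4 of 4 libraries (exact permutation test, p = 0.125, the smallest possible, adjusted p = 0.172). In the replicate 2 lists nearly every member at a start had a peak, so the direction there rests on few regions. The counts were 64 of 64 against 237 of 239 in Ern1-LKO, and 63 of 64 against 233 of 239 in WT. In replicate 1 of Ern1-LKO they were 10 of 64 against 27 of 239. Where present, peaks with ACGTG had a median fold percentile of 51.1 and 88.9 in Ern1-LKO and 70.6 and 91.3 in WT, against 44.1 and 88.4 in Ern1-LKO and 39.2 and 87.3 in WT without it, 10.7 points higher on average in 4 of 4 libraries (exact permutation test, p = 0.125, adjusted p = 0.172). Without WT replicate 1 the mean difference was 2.04 points in the share and 3.85 points in the percentile. The median number of CG pairs per window was 28.5 with ACGTG and 29 without.

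Long genes hosted the most members. Genes at the head of the count included Gse1, a coiled-coil protein of corepressor complexes, with 9 members in 353 kb, of which 2 were at a listed start. Rora, the orphan receptor that drives clock genes (735 kb), and Zfhx3 (682 kb) held 7 each. Maml3, Robo1, Tenm3, Tnrc18 and Tshz2 held 6 each. Presence in replicate 2 of Ern1-LKO and of WT varied among them: 7 and 9 of the 9 in Gse1, 3 and 3 of the 7 in Rora, and 2 and 0 of the 6 in Maml3. Over all genes with an interior more than 5 kb from every gene end, 3.87% hosted a member where that interior was at most 20 kb, 10.3% from 20 to 50 kb, 21.0% from 50 to 100 kb and 35.6% above 100 kb, so a list's share depends on the length of its genes.

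Genes of the secretory pathway include the textbook targets of XBP-1. None of 14 ER translocation genes and none of 21 N-glycosylation genes with an interior hosted a member, and 1 of 17 genes of ER-associated degradation and 3 of 34 of ER-Golgi transport did so, where 12.7% of all such genes did. Their median interiors were short, at 15.2 kb for translocation, 23.7 kb for N-glycosylation, 17.8 kb for degradation and 21.2 kb for transport, and at such lengths 3.87% (up to 20 kb) or 10.3% (20 to 50 kb) of all genes hosted a member. Sel1l, the scaffold of the HRD1 ubiquitin ligase, was the 1 degradation gene, with 2 members. The higher ranked had folds of 16.3 and 9.34 in Fasted and 5.18 and 6.34 in Fed, with 8.39 in Ern1-LKO replicate 2 and 5.59 in WT replicate 2. The ER folding list had 5 hosts of 18 (27.8%): Ero1a, the thiol oxidase, Sil1, the BiP exchange factor, Dnajc1, and the glucosyltransferases Uggt1 and Uggt2. Ero1a had 15.3 and 12.3 in Fasted and 5.87 and 12.2 in Fed, with 7.21 in Ern1-LKO replicate 2 and no WT peak. None of the 7 members in these 5 genes was found at a listed start, though no start of Sil1 was used here, and 4 of the 5 hosts were the list's genes with an interior over 50 kb, of which there were 4.

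Members were counted in several regulatory lists. Chromatin regulators hosted them in 17 of 37 genes, liver and other transcription factors in 11 of 23, nuclear receptors in 9 of 21, insulin and growth factor signalling in 8 of 24 and circadian clock genes in 4 of 14. These genes are long: among genes with an interior over 50 kb, the shares were 51.5% of 33 chromatin regulators, 81.8% of 11 transcription factors and 6 of 12 nuclear receptors, with 6 of 15 insulin and growth factor genes and 1 of 3 clock genes, beside 28.5% of all 4087 such genes. Members at a listed start were 2 of 26 in chromatin regulators, 3 of 20 in transcription factors, 0 of 18 in nuclear receptors and 3 of 5 in clock genes. Arntl, the clock activator BMAL1, had its region at a start, with 17.3 and 8.95 in Fasted and 9.91 and 11.4 in Fed. Its folds were 14.2 in Ern1-LKO replicate 2 and 9.66 in WT replicate 2. Nr3c1, the glucocorticoid receptor, had 17.1 and 8.42 in Fasted and 7.46 and 11.05 in Fed, with no peak in Ern1-LKO replicate 1, 14.4 in replicate 2, and 3.88 and 15.8 in WT.

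Metabolic lists were counted in the same way. Lipogenesis and lipid droplet genes hosted members in 5 of 20, gluconeogenesis and glucose metabolism in 4 of 21, bile acid genes in 3 of 15, fatty acid oxidation in 3 of 17, cholesterol genes in 2 of 20 and lipoprotein assembly in 0 of 5. Over all genes with an interior the share was 12.7%. Among their genes with an interior over 50 kb, hosts were 4 of 7 in lipogenesis, 4 of 6 in gluconeogenesis, 2 of 5 in bile acid genes, 1 of 4 in fatty acid oxidation, 1 of 2 in cholesterol genes and 0 of 2 in lipoprotein assembly, beside 28.5% of all 4087 such genes. With a shorter interior, hosts were 1 of 13 in lipogenesis, 0 of 15 in gluconeogenesis and 1 of 10 in bile acid genes. They were 2 of 13 in fatty acid oxidation, 1 of 18 in cholesterol genes and 0 of 3 in lipoprotein assembly, beside 6.07% of all 9722 such genes. Elovl6, a fatty acid elongase, held 2 members, the higher with 15.6 and 12.9 in Fasted and 4.67 and 12.7 in Fed. Gpam, the first enzyme of glycerolipid synthesis, had its region at a listed start, with 14.4 and 5.82 in Fasted and 6.12 and 9.40 in Fed. Its folds were 4.61 and 14.6 in Ern1-LKO and 9.0 in WT replicate 2. Ppargc1a, the coactivator of gluconeogenesis, held 3 members, the highest with 11.9 and 16.6 in Fasted and 4.13 and 9.87 in Fed. Unfolded protein response sensors and factors counted 2 hosts of 10, the transmembrane factors Creb3l2 and Creb3l1. By length these were 1 of 4 genes with an interior over 50 kb and 1 of 6 with a shorter one.

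Markers of several cell types hosted members. Hepatocyte markers hosted members in 1 of 12 genes (Ass1, the argininosuccinate synthase of the urea cycle) and endothelial markers in 5 of 14, among them Stab2, a scavenger receptor of sinusoids, and Flt1, a VEGF receptor. Cholangiocyte markers counted 2 of 5, stellate cell markers 1 of 13, and Kupffer cell and lymphocyte markers 0 of 9 and 0 of 8. The median interior was 5.75 kb for hepatocyte and 29.5 kb for endothelial markers. Over all genes with an interior, 12.7% hosted a member, with 3.87% up to 20 kb and 10.3% from 20 to 50 kb. The counts of these short lists therefore do not rank the cell types. In bulk liver, the cell type that carries a peak cannot be told apart.

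**Figure D5:**
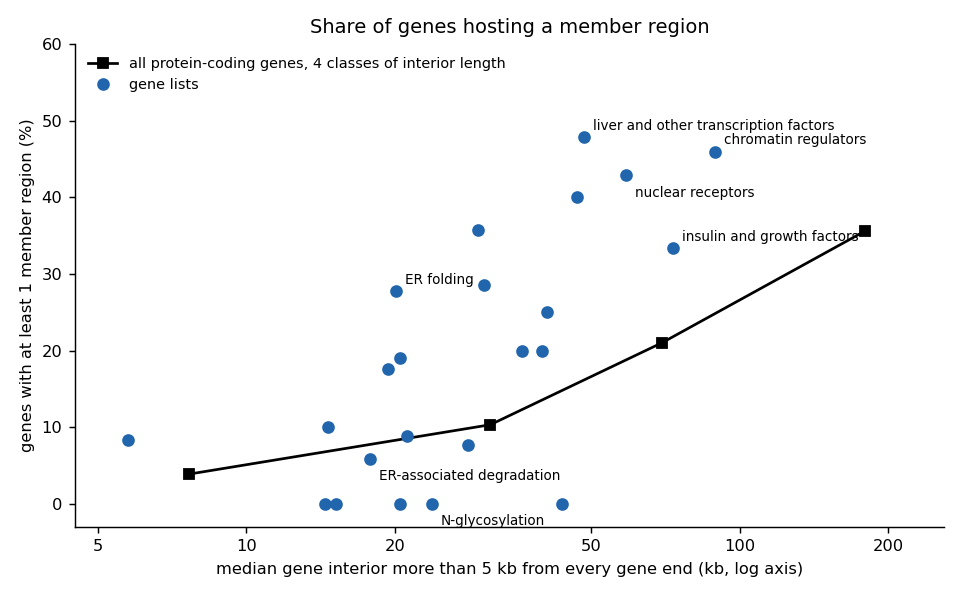
Share of genes that host at least 1 member (y axis, percent) against the median length of the gene interior more than 5 kb from every gene end (x axis, kb, log axis), for all protein-coding genes in 4 classes of interior length (squares) and for each gene list (circles, 0 included). The share over all genes is 35.6% above 100 kb, and the circles lie on both sides of the line that joins the squares, most of them above it and the lists with no host below it. Each circle places genes of mixed lengths at their median, so its height over the line is not a comparison at like length.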

How the data were processed

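XBP-1 ChIP-seq peak lists of 8 mouse liver libraries and the authors' 4 pooled lists were used, all in mm10 coordinates. The submitters' processing notes name MACS2 2.2.1, Bowtie2 2.2.5, FastQC 0.11.3 and bcl2fastq, whereas per the file headers MACS 2.1.1.20160309 wrote the lists at q below 0.05. The deposited fold enrichment is a ratio of summit pileup to local background. The deposited -log10 p-values and q-values, and the authors' pileup signal at the summit, served for filters or were not used further. No read counts were used, so depth is known only as kept tags.

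Peaks were merged by at least 1 bp, placed by midpoint against RefSeq gene spans of mm10 (GRCm38.p6), and looked up in the Ern1-LKO and WT lists, where any peak overlapping the region by 1 bp counted. Starts came from the RefSeq table of 32851 windows, in which 1405 of the 1755 host genes were found. Groups were taken from the labels. Exact two-sided permutation tests used the library as the unit (Ern1-LKO against WT) or flipped signs within the 4 libraries (one class of regions against another). The steps were tested on simulated peak lists with planted classes. Python 3.11.15, pandas 2.3.3, numpy 2.4.6, scipy 1.17.1 and matplotlib 3.10.9 were used.

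The members and the gene lists were chosen with earlier results of these data known. Named genes are the 20 members of the highest mean percentile, the 5 genes with most members (with ties), up to 5 hosts a list, up to 20 members in all 8 libraries, and the regions next to the 5-kb limit. Predicted genes were passed over, except the host beside Mir148a. One gene that the rule would name is not reported here. Alternatives covered stricter thresholds, other distances, the pooled lists, single libraries left out and the replicate block.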

Additional observations from a re-analysis of the deposited data

How the results depend on the processing

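The number of members followed the calling. It was 472 with peaks of -log10 q of at least 10, 1230 with folds of at least 5 and 9423 in the authors' pooled lists, against 2247. It ranged from 2305 to 5572 with 1 Fasted or Fed library left out, with 5572 without Fasted replicate 2 and 4226 without Fed replicate 1. Members at a listed start numbered 178 with -log10 q of at least 10, 495 with a 2-kb limit and 628 in the pooled lists, and 302 to 623 with 1 library left out. The difference between Ern1-LKO and WT turned to -3.60 points with -log10 q of at least 10, and ranged from -30.2 to 32.2 with 1 library left out (-2.65 without Fasted replicate 2, -30.2 without Ern1-LKO replicate 2, -26.3 without WT replicate 1). The percentile difference between members and gene-end regions turned to 0.651 with -log10 q of at least 10, and ranged from -15.2 to -5.76 with 1 library left out. The causes were not tested. The other differences kept their direction under every alternative run, with members minus gene-end regions from -32.1 to -19.2 and members minus intergenic regions from 2.70 to 7.19 with 1 library left out, and members at a start minus members at none from 23.2 to 37.1. Their sizes moved more under the other settings: the same differences were -6.23, 0.901 and 9.33 with equal numbers of top peaks from each list, and were -46.4, 5.19 and 55.9 in the pooled lists. With the replicate block the difference between Ern1-LKO and WT was 1.02 points (exact permutation test, p = 1, smallest possible 0.5), -2.89 in replicate 1 and 4.94 in replicate 2. The labels give the numbers no shared animal or day, so they were not taken as pairs, and over members the deviations of same-numbered libraries had a correlation of 0.376. The splits by listed start, by ACGTG and by width, and the count of peaks that cover the mean summit, and the fit of the ACGTG split without WT replicate 1, were chosen after the data had been seen. The replicate 1 lists of 698 and 6258 peaks limit what can be found there.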
